A study of Mus musculus with 17 samples.

Results

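The genes described here are 32 members of the XBP1 and ATF6 arms of the unfolded protein response, the programme that matches the folding capacity of the endoplasmic reticulum (ER) to the load of new secretory and membrane proteins. They were found by symbol, and each of the 32 had 1 row in both deposited count tables, out of 56305 gene rows in all. The source was bulk RNA of acute myeloid leukaemia bone marrow, taken from mice of the C57BL/6 strain. Every library carried the same heterozygous Dnmt3a point mutation together with the heterozygous Npm1cA allele, and the libraries named Mt1ko were in addition labelled as an Mt1 knockdown, made with CRISPR-Cas9. Mt1 encodes metallothionein 1, a zinc- and copper-binding protein. The 8 control and 9 Mt1ko libraries, all labelled technical replicates, were summed by the authors into 3 control samples (libraries 1-3, 7-9 and 14-15) and 3 Mt1ko samples (libraries 4-6, 10-12 and 16-18). The labels used here give no age, guide, control vector or animal for a library, nor whether samples such as 7-9 and 10-12 share a day or a preparation. A p-value below therefore measures the spread among these samples and no more, and some of that spread may be technical. In bulk RNA, fewer cells of a type and less RNA per cell cannot be told apart.

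Proteins enter the ER through the SEC61 translocon and fold there with the help of the chaperone BiP, the lectins calnexin and calreticulin, and the protein disulfide isomerases. When unfolded proteins accumulate, 3 sensors in the ER membrane respond: IRE1 (Ern1) splices the Xbp1 mRNA into the form that encodes the active transcription factor, ATF6 is cut in the Golgi to release a transcription factor, and PERK (Eif2ak3) slows translation. XBP1 and ATF6 then drive genes for chaperones, translocation and ER-associated degradation, the route by which misfolded proteins are returned to the cytosol and destroyed. Cells that make much secretory protein, such as plasma cells and granule-forming myeloid progenitors, use this programme heavily. A count per gene does not separate spliced from unspliced Xbp1, so the activity of IRE1 was not measured here.

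The best known DNA element of this response is the ER stress response element (ERSE), which was searched as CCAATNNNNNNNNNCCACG on both strands. Promoter windows of 300 bases, from 250 before to 50 after a RefSeq start on GRCm38.p6, were given for 26 of the 32 members. Of these 26, 9 held the element (34.6%), against 37 of all 27025 genes with a window (0.137%). Its second form, ERSE-II, searched as ATTGG, any base and then CCACG, was found in 1 member (Dnajb11) and 12 genes in all. The core of the element bound by XBP1, TGACGTGG, was found in 0 of the 26 members and 193 genes. The searched motifs share letters: both ERSE forms contain CCACG, and the XBP1 core contains its reverse complement CGTGG. A match is a description of the sequence, and a missing match says only that these letters were not in the window. The sequences below are shown because they hold an element of this response, which 10 of the 26 members carried in 1 of its 2 ERSE forms and 16 did not. The windows were not read in choosing the members. Yet the members were listed as genes of this response, so a high share of its element among them may follow from that choice. Each runs 5′ to 3′ on the strand of its gene, with the matched element in capitals and a match on the opposite strand reading as its reverse complement. Hspa5 and Dnajb11 are cut close to the match because it lay inside the gene's GENCODE model, while all the others lay upstream of theirs.
Hspa5, chr2:34772020-34772048, plus strand: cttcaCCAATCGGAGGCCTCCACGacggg
Hsp90b1, chr10:86705510-86705694, minus strand: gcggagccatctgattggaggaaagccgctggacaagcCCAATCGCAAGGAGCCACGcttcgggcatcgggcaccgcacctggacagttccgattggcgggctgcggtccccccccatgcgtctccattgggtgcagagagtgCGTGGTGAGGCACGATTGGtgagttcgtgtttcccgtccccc
Calr, chr8:84846935-84847181, minus strand: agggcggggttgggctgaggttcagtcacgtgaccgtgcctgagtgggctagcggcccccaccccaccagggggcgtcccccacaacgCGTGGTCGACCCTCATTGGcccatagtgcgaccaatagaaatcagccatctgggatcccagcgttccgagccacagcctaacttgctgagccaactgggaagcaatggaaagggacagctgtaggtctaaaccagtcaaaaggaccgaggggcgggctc
Canx, chr11:50325780-50325838, minus strand: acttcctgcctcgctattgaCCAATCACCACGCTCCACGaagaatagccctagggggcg
Pdia6, chr12:17266339-17266544, plus strand: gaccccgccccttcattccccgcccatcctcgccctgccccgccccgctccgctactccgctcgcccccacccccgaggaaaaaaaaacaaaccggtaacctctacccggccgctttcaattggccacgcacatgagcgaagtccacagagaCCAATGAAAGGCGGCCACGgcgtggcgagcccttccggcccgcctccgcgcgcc
Dnajc3, chr14:118937807-118937865, plus strand: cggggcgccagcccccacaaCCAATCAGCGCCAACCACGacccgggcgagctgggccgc
Creld2, chr15:88819500-88819558, plus strand: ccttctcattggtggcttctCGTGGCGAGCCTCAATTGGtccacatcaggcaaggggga
Syvn1, chr19:6046512-6046570, plus strand: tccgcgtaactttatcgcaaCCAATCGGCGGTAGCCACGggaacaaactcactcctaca
Derl3, chr10:75893222-75893280, plus strand: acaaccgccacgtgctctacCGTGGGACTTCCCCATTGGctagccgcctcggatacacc
Dnajb11, chr16:22857847-22857867, plus strand: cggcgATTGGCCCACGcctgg
Hsp90b1 held 2 matches, in opposite orientations, 212 and 107 bases before its start (counted to the first base of the match), and the other 8 held 1 each. The Hspa5 match began 65 bases before the start and the Calr match 162 bases before it.

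The targeted gene was checked first. Mt1 was 347.5 to 471.3 CPM (the gene's counts scaled to a common library total) in the 8 control libraries and 41.8 to 87.2 CPM in 8 of the 9 libraries labelled Mt1ko. The library labelled Mt1ko 6 held 326.2 CPM, so Mt1ko sample 4-6 contains a library that went against its label. Libraries held 27124722 to 38645072 counts. Mitochondrial ribosomal RNA took 21.9% to 30.2% of the counts in libraries 10 to 12, 6.03% to 11.2% in libraries 7 to 9 and 4.58% to 6.31% in the other 11. Libraries 10 to 12 also had the fewest detected genes, 11548 to 13174, against 14823 to 17739 in the other 14. The myeloid label of the tissue was borne out by its markers, with 12 of 12 monocyte and macrophage genes at 10 CPM or more in the control mean, while every B cell marker was under 1 CPM in each of the 6 samples.

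The members were low in 2 of the 6 samples, 1 of each group, and stood close together in the other 4. The 32 members took 2.05%, 0.837% and 1.91% of all counts in control samples 1-3, 7-9 and 14-15. In Mt1ko samples 4-6, 10-12 and 16-18 they took 1.97%, 0.702% and 1.82%. The members' share was thus smaller in control sample 7-9 and Mt1ko sample 10-12 than in the other 4 samples. No library of these 2 exceeded 0.924%, while no library of the other samples was under 1.57%. These are shares of all counts, mitochondrial ribosomal RNA included. With the TMM scaling used below, the members summed to 7954 CPM in 7-9 and 8248 CPM in 10-12, against 17665 to 19947 CPM in the others. Samples 7-9 and 10-12 were the lowest of the 6 in 28 of the 32 members, against 20.3% of the 16666 tested genes. Without Derl3, which had 0 counts in both, the number was 27 of 31 members. Among the 4955 more abundant tested genes (average log2 CPM of at least 5) the share was 34.9%. Libraries 7, 8 and 9 all lay below each of the other 11 libraries in 27 members (background 5.54%), and libraries 10, 11 and 12 did so in 27 members as well (background 17.3%). Sample 7-9 was the lowest control in 30 members (37.5% of all genes), and sample 10-12 the lowest Mt1ko sample in 29 (51.2% of all genes). These counts describe an order that was noticed in the data, and no test was made of it.

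**Figure D1:**
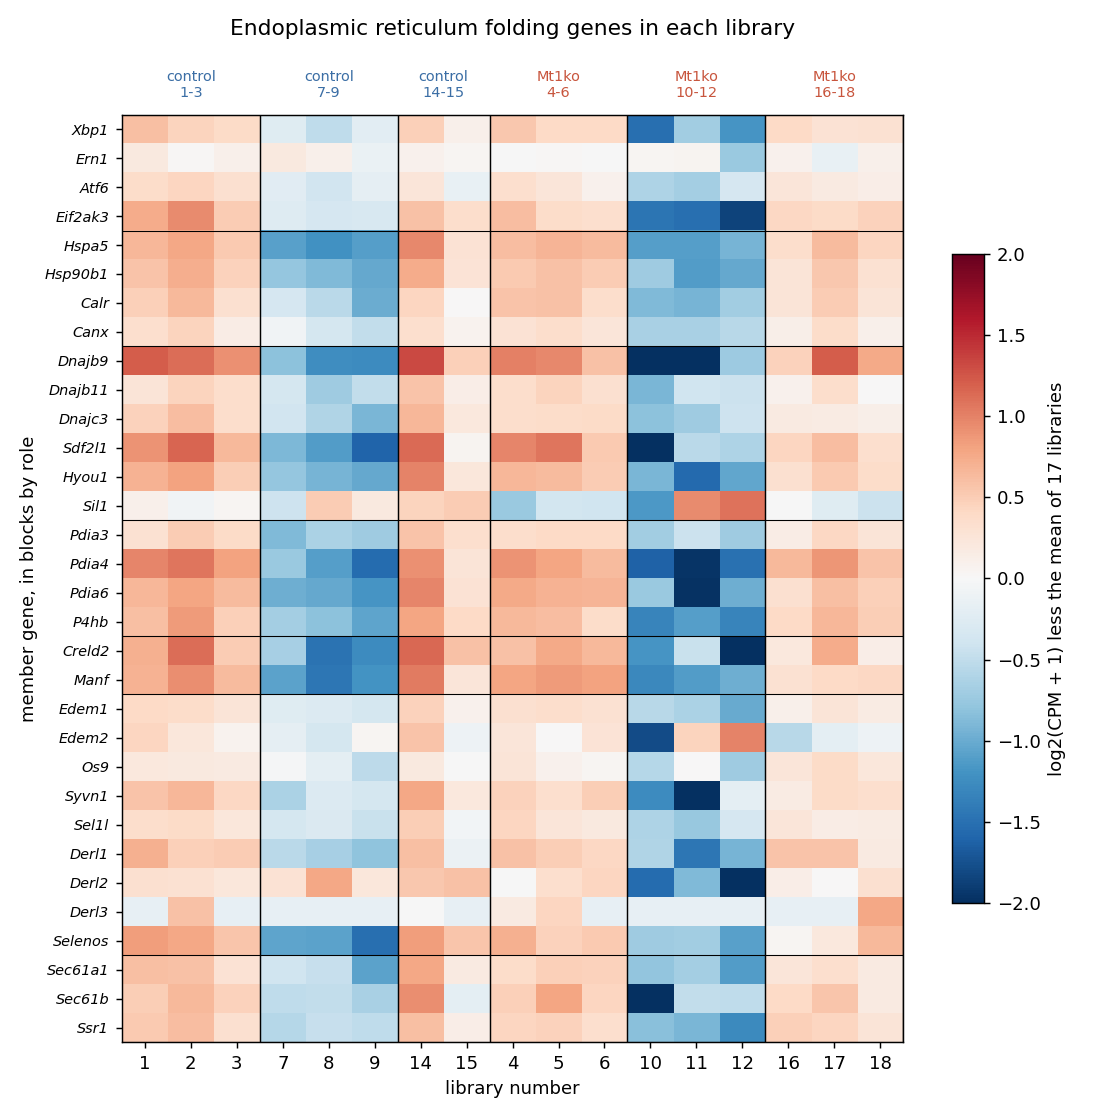
Heat map of 32 members (rows, in blocks by role from sensors at the top to the translocon at the bottom) in 17 libraries (columns, by summed sample), as log2(CPM + 1) less the gene's mean over the 17 libraries. Libraries 7 to 9 and 10 to 12 are blue in most rows, and Ern1, Edem2, Derl2, Derl3 and Sil1 depart from that pattern.

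Values per gene are given below in CPM of the summed samples after TMM scaling, in the order control 1-3, 7-9 and 14-15, then Mt1ko 4-6, 10-12 and 16-18. Values of single libraries are CPM without TMM scaling. The TMM factor of sample 10-12 was 0.852, against 1.00 to 1.05 in the others, so its scaled sums stand above the unscaled level of its libraries. Among the sensors and factors, Xbp1 was 311.7, 175.3 and 273.3 CPM in control and 313.3, 128.6 and 282.3 CPM in Mt1ko. Atf6 was 192.7, 120.8 and 153.8 CPM in control and 177.8, 123.04 and 168.4 CPM in Mt1ko. Eif2ak3, which encodes PERK, was 66.2, 30.7 and 53.7 CPM in control and 54.7, 14.8 and 52.8 CPM in Mt1ko. All 3 were lowest in samples 7-9 and 10-12, and the groups overlapped. Ern1 was the exception: the gene for IRE1, the sensor that splices Xbp1, held 187.4, 179.5 and 179.6 CPM in control and 179.02, 188.8 and 175.5 CPM in Mt1ko. Its highest sample was 1.08 times its lowest, the narrowest range of the 31 members with counts in every sample, although libraries 10, 11 and 12 were uneven at 185.4, 186.6 and 107.3 CPM.

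The chaperones and lectins were the most abundant part of the set. Hspa5, which encodes BiP, was 1980 CPM in sample 1-3, 558.2 CPM in 7-9 and 1971 CPM in 14-15. In Mt1ko it was 2014, 732.2 and 1753 CPM. In single libraries, without that scaling, Hspa5 was 556.0 to 607.0 CPM in libraries 7 to 9 and 598.8 to 675.3 CPM in libraries 10 to 12, against 1573 to 2518 CPM in the other 11, so the ranges did not meet. Hsp90b1, the ER form of HSP90, was 2902, 1027 and 2747 CPM in control and 2881, 1207 and 2514 CPM in Mt1ko. Calr, the lectin calreticulin, was 2949, 1392 and 2445 CPM in control and 3055, 1424 and 2686 CPM in Mt1ko. Canx, its membrane-bound relative calnexin, varied least of the 4, at 1075, 698.1 and 986.2 CPM in control and 1088, 682.8 and 998.7 CPM in Mt1ko.

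The cofactors that regulate BiP spread widely. Dnajb9, an ER J-protein that restrains IRE1, was 80.35, 16.9 and 73.3 CPM in control and 70.7, 12.7 and 69.2 CPM in Mt1ko. Its highest sample was 6.33 times its lowest, the widest range of the 31 members. Its lowest sample was uneven, with 1.70, 8.04 and 23.03 CPM in libraries 10, 11 and 12 (51, 268 and 690 counts), so the size of that range rests on which of these libraries enter. Sdf2l1 was 110.1, 25.1 and 94.1 CPM in control and 108.7, 33.9 and 80.3 CPM in Mt1ko. Hyou1, a nucleotide exchange factor for BiP, was 472.04, 156.4 and 465.2 CPM in control and 463.4, 160.5 and 395.2 CPM in Mt1ko. The J-proteins Dnajb11 and Dnajc3 followed the same order with ranges of 1.94-fold and 2.18-fold. Sil1, the other exchange factor of the set, did not: it was 15.1, 15.9 and 20.5 CPM in control and 10.6, 27.6 and 12.5 CPM in Mt1ko, highest in sample 10-12. Within that sample, libraries 10, 11 and 12 held 6.29, 30.1 and 33.5 CPM of Sil1, so its level there was uneven too.

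The disulfide isomerases, which form and rearrange disulfide bonds in folding proteins, were all low in the same samples. Pdia4 was 2999, 728.1 and 2366 CPM in control and 2707, 581.1 and 2530 CPM in Mt1ko, a range of 5.16-fold. P4hb was 2418, 853.1 and 2318 CPM in control and 2299, 786.03 and 2229 CPM in Mt1ko. Pdia6 and Pdia3 had ranges of 3.57-fold and 2.32-fold. The 2 small proteins that the response induces and that can leave the cell behaved likewise. Manf was 266.3, 64.9 and 252.2 CPM in control and 285.1, 86.6 and 204.1 CPM in Mt1ko. Creld2 was 100.1, 25.9 and 105.2 CPM in control and 92.97, 32.2 and 75.02 CPM in Mt1ko. The gene model of Manf overlaps Rbm15b on the same strand, whose counts over all libraries came to 25.9% of those of Manf, and the labels do not say how shared reads were treated.

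**Figure D2:**
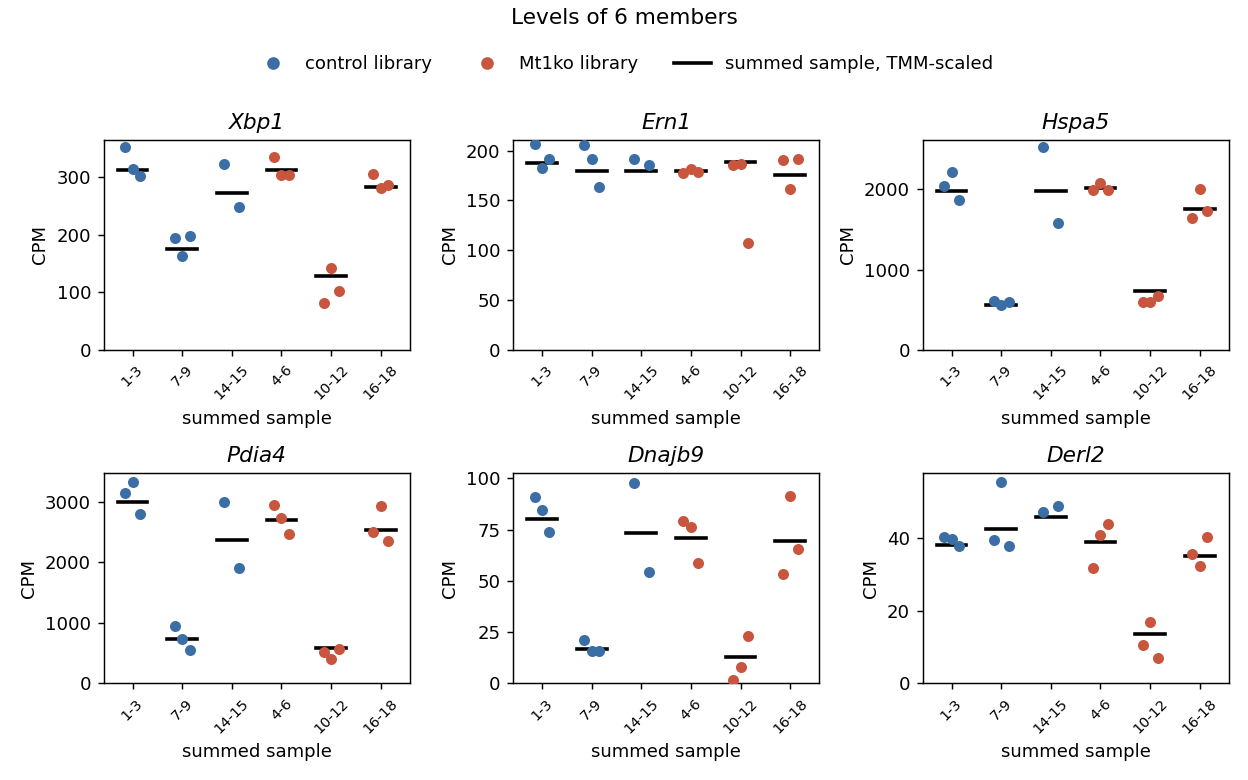
CPM of 6 members in each summed sample, where points are libraries (blue control, red Mt1ko) and black bars the summed sample after TMM scaling, on axes from 0. Xbp1, Hspa5, Pdia4 and Dnajb9 are low in samples 7-9 and 10-12, Ern1 is level apart from library 12 at 107.3 CPM, and Derl2 is low in sample 10-12 alone.

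Genes of ER-associated degradation were more mixed. The ubiquitin ligase Syvn1 was 81.7, 40.2 and 79.1 CPM in control and 77.05, 32.8 and 68.7 CPM in Mt1ko. Its partner Sel1l had a range of 1.64-fold, and Derl1, a channel component, 2.42-fold. The mannosidase-like Edem1 was 442.1, 280.0 and 419.6 CPM in control and 449.98, 255.8 and 396.4 CPM in Mt1ko, whereas its relative Edem2 was scarce and had no such order, at 23.3, 16.9 and 23.7 CPM in control and 23.0, 29.1 and 16.3 CPM in Mt1ko. Selenos, a selenoprotein of the retrotranslocation complex, was 75.5, 19.3 and 73.2 CPM in control and 69.6, 30.8 and 57.5 CPM in Mt1ko. Os9, a lectin that hands glycoproteins to the ligase, varied little, from 212.3 CPM in sample 7-9 to 307.1 CPM in sample 16-18. Derl2, another derlin, parted the 2 samples: it was 38.1, 42.3 and 45.7 CPM in control and 38.997, 13.6 and 35.0 CPM in Mt1ko, low in 10-12 but not in 7-9. Derl2 overlaps Mis12 on the opposite strand, which had 20870 counts over all libraries or 105.7% of those of Derl2, and the labels do not say whether counting used the strand. Derl3 was almost absent, with 0 counts in samples 7-9 and 10-12, which allows up to 0.029 and 0.0377 CPM after TMM scaling (3 counts, counting error only), and at most 0.315 CPM elsewhere.

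The translocon genes took the common order with moderate ranges. Sec61a1, the channel itself, was 185.5, 85.9 and 185.7 CPM in control and 183.7, 88.1 and 156.7 CPM in Mt1ko. Sec61b, its small subunit, ranged 2.42-fold and Ssr1, of the translocon-associated complex, 2.32-fold. By role, the median shift from the control mean on the log2(CPM + 1) scale in sample 7-9 was -1.31 for the 2 secreted proteins, -1.08 for the 4 isomerases, -0.89 for the 6 BiP cofactors and -0.80 for the 4 chaperones and lectins. It was -0.72 for the 3 translocon genes and -0.41 for both the 4 sensors and factors and the 9 degradation genes. In sample 10-12 the isomerases had the lowest median (-1.04) and the degradation genes the least low (-0.54). The controls' mean includes sample 7-9 itself, so these shifts are smaller than the distance to the other samples.

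The spread lay between summed samples more than between their libraries. The standard deviation of log2(CPM + 1) among libraries of 1 sample had a median of 0.216 over the 32 members, against 0.651 between the 6 sample means. The second exceeded the first in 28 members. Over all 16666 tested genes the medians were 0.465 and 0.334, and over the 4955 more abundant genes (average log2 CPM from 5 upwards) they were 0.248 and 0.253. The low members were well counted: in sample 7-9 Hspa5 had 57774 counts and Dnajb9 1752, and in sample 10-12 they had 58204 and 1009. Of the other samples, library 15 was the lower of its pair in most members, with 1573 CPM of Hspa5 against 2518 CPM in library 14.

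Between Mt1ko and control, no member was called (0 of 32, edgeR quasi-likelihood test, adjusted p under 0.05), and the same held for all genes tested (0% called). At an unadjusted p under 0.05 the counts were 0 of 32 members and 1.03% of all genes. The groups overlapped in every member, while they did not overlap in 7.1% of all genes. Of the members 10 had a log2 fold change above 0, against 48.3% of all genes, and their median log2 fold change was -0.02, against -0.01 over all genes. Leaving Derl3 aside, log2 fold changes ran from -0.52 (Derl2) to 0.11 (Os9), and edgeR's adjusted p was 1.00 for every member. Exact two-sided permutation tests on mean log2 CPM gave p from 0.2 to 1 in the 31 members with counts in every sample, where 3 against 3 samples cannot go below 0.1.

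The intervals show what such samples could resolve. Hspa5 averaged 1503 ± 818 CPM over the controls and 1499.6 ± 677 CPM over Mt1ko (SD, n = 3 each). The log2 fold change was -0.003 with a 95% interval from -1.21 to 1.21. Xbp1 averaged 253.4 ± 70.4 and 241.4 ± 98.9 CPM, with -0.07 as its log2 fold change (interval -0.87 to 0.73). Ern1 had the narrowest interval, at 182.2 ± 4.5 and 181.1 ± 6.9 CPM and a log2 fold change of -0.01 (interval -0.26 to 0.24). Dnajb9 had the widest of the 31, -1.81 to 1.49 around -0.16. For 17 of the 32 members the interval lay within 1 log2 unit of 0, against 45.3% of all genes. Most members are abundant, and at an average log2 CPM of at least 5 the interval was that narrow in 15 of 29 members, against 94.6% of the 4955 tested genes at that level. The direction rested on single samples. Without control sample 1-3, 7-9 or 14-15 the number of members higher in Mt1ko was 28, 1 or 26, and without Mt1ko sample 4-6, 10-12 or 16-18 it was 4, 28 or 5.

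With both samples 7-9 and 10-12 left out, a choice made after their values were seen, 0 members were called and 6 were higher in Mt1ko, with a median log2 fold change of -0.07. The 31 members other than Derl3 then ran from -0.63 (Sil1) to 0.09 (Os9), and 30 of them lay within 0.5 of 0. Hspa5 was -0.07, Pdia4 -0.04 and Xbp1 0.02 in that comparison. Library 6 moved the members little: without it their median was -0.01 and 13 were higher. The libraries also carried 3 second index sequences, and the median member difference was 0.35 log2 units higher in Mt1ko within the first (5 control and 3 Mt1ko libraries) and -0.62 within the second (3 control and 4 Mt1ko libraries), against -0.11 over all 17. The third was carried by 2 Mt1ko libraries only. The direction thus differed between index sets, which held the low libraries unequally: libraries 7 and 8 carried the first, and 9 to 12 the second. Within sample 7-9, library 9 was the lowest of the 3 libraries in 19 members, with Pdia4 at 955.2, 740.4 and 544.9 CPM in libraries 7, 8 and 9, while Xbp1 was 194.9, 162.4 and 198.3 CPM. The part of the index in the result was not tested.

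**Figure D3:**
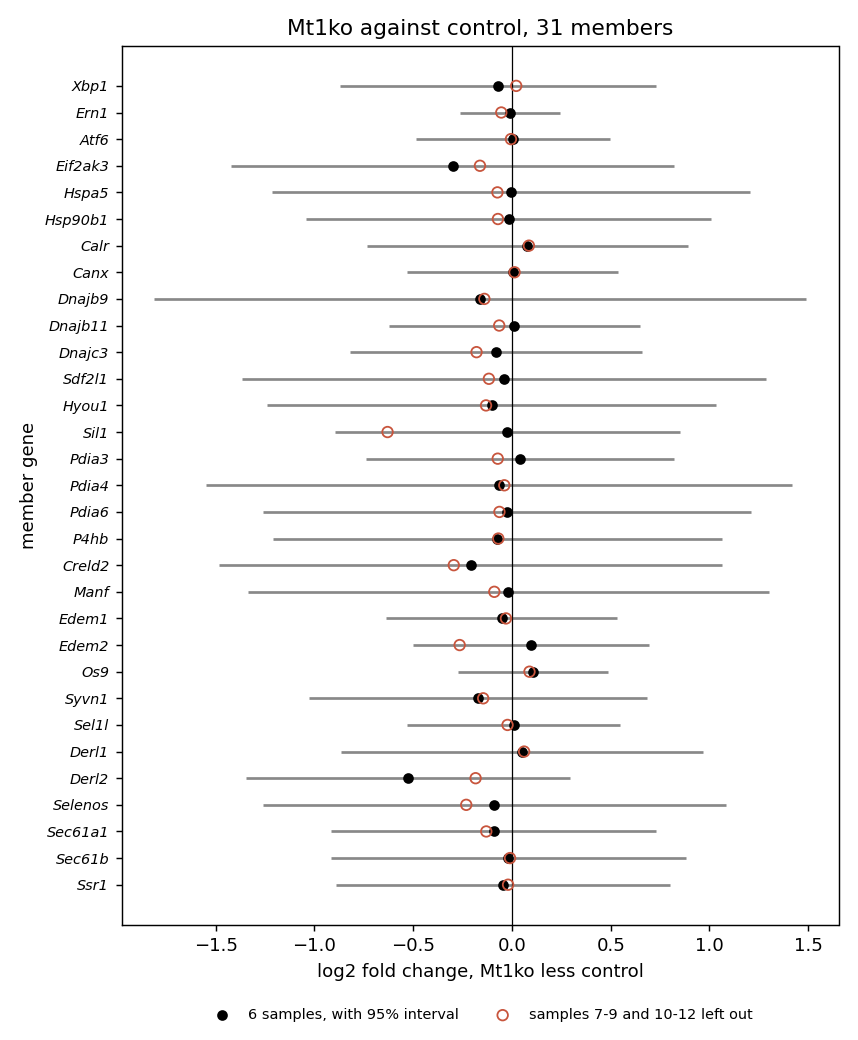
Log2 fold change of Mt1ko less control for 31 members (Derl3, almost without counts, is left out), with 95% intervals from 6 samples (black) and the estimate without samples 7-9 and 10-12 (open red). Every interval crosses 0, and the open points lie between -0.63 and 0.09.

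Other genes of the same compartment were read from lists of folding, translocon, glycosylation, degradation, regulation and ER-to-Golgi traffic genes. None was called: 0 of 26 other folding and disulfide genes, 0 of 22 translocon and signal peptidase genes, 0 of 18 N-glycosylation genes, 0 of 20 degradation genes, 0 of 14 regulators and 0 of 20 traffic genes (edgeR adjusted p). Their median log2 fold changes were between -0.03 and 0.05. Among the regulators are the 2 proteases that cut ATF6. Mbtps2, the site-2 protease, was 20.7, 17.7 and 17.3 CPM in control and 23.3, 26.001 and 23.8 CPM in Mt1ko. Its log2 fold change was 0.39 (SE 0.17) and did not pass (edgeR adjusted p = 1.00). Mbtps2 was picked as the gene of these lists with an unadjusted p under 0.05, which 1.03% of all tested genes also had. Its groups did not overlap, as was the case in 7.1% of all tested genes. A single gene picked from the lists in this way cannot show a change in the proteases. Mbtps1, the site-1 protease, was 92.6, 126.4 and 102.4 CPM in control and 90.98, 64.4 and 98.3 CPM in Mt1ko, highest in sample 7-9 and lowest in sample 10-12. Its log2 fold change was -0.34 (SE 0.20, edgeR adjusted p = 1.00).

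Samples 7-9 and 10-12 were the lowest also in these lists, with smaller shifts. In sample 7-9 the median shift was -0.49 for traffic, -0.31 for N-glycosylation, -0.30 for the translocon list, -0.28 for other folding genes, -0.18 for degradation and -0.10 for regulators, against -0.69 for the members and 0.01 for all tested genes. In sample 10-12 the 6 lists were between -0.37 and -0.17, against -0.74 for the members and -0.11 for all tested genes. The 2 samples were the lowest of the 6 in 17 of 20 traffic genes, 19 of 22 translocon genes and 19 of 26 other folding genes. They were so in 11 of 18 N-glycosylation genes, 11 of 20 degradation genes and 5 of 14 regulators, against 34.9% of the 4955 more abundant genes.

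The ATF4 amino acid arm, which lies downstream of PERK and other kinases, was kept apart. It had 0 of 31 tested genes called, 8 higher in Mt1ko and a median log2 fold change of -0.15, which lay between -0.33 and 0.15 when 1 summed sample was left out. Of all tested genes, 48.3% were higher in Mt1ko. The median shift of the ATF4 list was -0.47 in sample 7-9 and -0.51 in sample 10-12, and the 2 samples were the lowest in 22 of 31 genes. They were so in 20.3% of all tested genes and 34.9% of the more abundant ones. The smallest p-values of the ATF4 list belonged to Ddit4, Cebpb and Trib3, with log2 fold changes of -0.27, -0.21 and -0.95 (edgeR adjusted p = 1.00 for each).

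**Figure D4:**
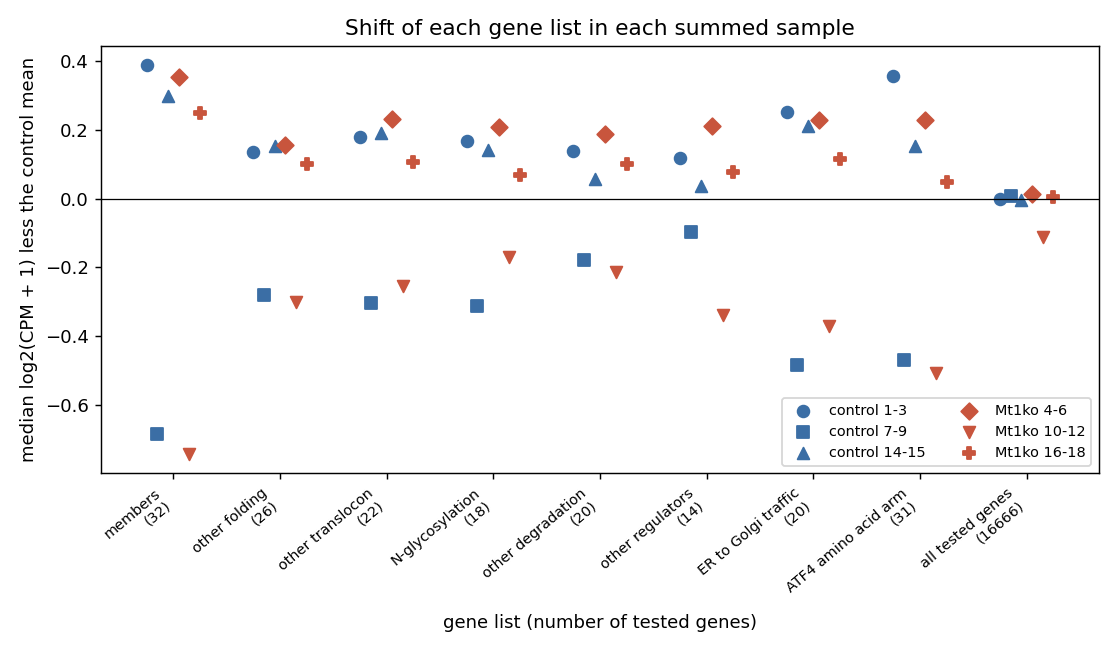
Median over tested genes of log2(CPM + 1) less the control mean, for the members, 6 further lists of the secretory pathway, the ATF4 amino acid arm and all tested genes, in each of the 6 summed samples (blue control, red Mt1ko). Samples 7-9 and 10-12 lie below 0 in every list, lowest for the members at -0.69 and -0.74, while all tested genes stay between -0.11 and 0.01.

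Markers of cell types differed in their order over the samples. Granulocyte progenitor genes (7 markers, 0 of them at 0 in every sample) summed to 139.9, 26.3 and 170.1 CPM in control and 144.2, 12.3 and 81.6 CPM in Mt1ko. Samples 7-9 and 10-12 were the lowest in 5 of these 7 markers, against 20.3% of all tested genes. Mpo, named after its values were seen, was instead highest in sample 7-9, at 5.84 CPM. Elane, neutrophil elastase, was 54.5, 6.71 and 80.0 CPM in control and 66.4, 1.37 and 27.04 CPM in Mt1ko. Mast cell genes went the other way and mostly in 1 sample: their 12 markers summed to 239.4, 831.5 and 676.3 CPM in control and 413.0, 5304 and 166.7 CPM in Mt1ko, with Prss34 at 0 throughout. Hspa5, in the same order of samples, was 1980, 558.2 and 1971 CPM in control and 2014, 732.2 and 1753 CPM in Mt1ko. Monocyte and macrophage genes summed to 10745, 12931 and 11210 CPM in control and 12408, 9898 and 12325 CPM in Mt1ko, and single markers went different ways. Lyz2, lysozyme, was 2238, 5644 and 2554 CPM in control and 3111, 4589 and 2988 CPM in Mt1ko, highest in samples 7-9 and 10-12. Mrc1, the mannose receptor, and Ly6c2, a marker of inflammatory monocytes, were chosen after their values were seen because they were lowest there. Mrc1 was 304.96, 12.2 and 164.1 CPM in control and 259.4, 19.9 and 234.7 CPM in Mt1ko. Ly6c2 was 463.9, 245.9 and 395.5 CPM in control and 503.1, 223.8 and 430.4 CPM in Mt1ko. The part of these cells in the result was not tested.

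Plasma cells, the textbook users of XBP1, were close to absent. Their 13 markers summed to 8.9 to 21.4 CPM in control and 1.0 to 19.0 CPM in Mt1ko, 9 of 13 were under 1 CPM in every sample, and Tnfrsf17, Igha and Ighg2b were at 0. The sum was lowest in samples 10-12 and 7-9, but these were the 2 lowest samples in only 2 of the 6 tested markers, Irf4 and Prdm1. Over all tested genes that share was 20.3%. Ighm was 3.55 CPM in control sample 7-9, above the 0.178 CPM of control sample 14-15. The other lists were small too, with sums of 3.0 to 45.4 CPM for erythroid, 0.1 to 0.8 CPM for B cell, 0 to 3.0 CPM for T and NK cell and 15.1 to 91.2 CPM for stroma and endothelium. Late neutrophil genes summed to 186.8 to 271.8 CPM and megakaryocyte genes to 103.8 to 287.7 CPM over the 6 samples. Mitochondrial ribosomal RNA and Pdia4 ran in opposite orders within sample 7-9 and in the same order within sample 10-12. In libraries 7, 8 and 9 the RNA took 6.03%, 8.77% and 11.2%, with Pdia4 at 955.2, 740.4 and 544.9 CPM. In libraries 10, 11 and 12 it took 26.3%, 21.9% and 30.2%, with Pdia4 at 520.9, 409.1 and 564.3 CPM. The other disulfide isomerases did not share the order of Pdia4 in libraries 10, 11 and 12. P4hb was 633.1, 735.2 and 632.7 CPM there and Pdia3 288.4, 346.5 and 283.5 CPM, both opposite to the mitochondrial share. Pdia6, at 248.5, 104.4 and 209.9 CPM, took neither order. The 11 libraries outside these samples held 1908 to 3332 CPM of Pdia4. The mitochondrial share of library 7 lay inside the 4.58% to 6.31% of those 11, and libraries 8 to 12 lay above that range. The part of mitochondrial ribosomal RNA in the result was not tested. With mitochondrially encoded genes left out before scaling, the members' median log2 fold change was again -0.02.

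Per length of merged exons, the members spanned a wide range of levels in control. The highest were Pdia4 at 846.6 ± 488.4, Calr at 785.4 ± 275.8, P4hb at 651.2 ± 306.2, Hsp90b1 at 551.9 ± 258.1 and Hspa5 at 355.4 ± 193.5 CPM per kilobase (SD, n = 3). Of the 31 neighbouring pairs in this order, 3 differed by more than the larger SD of the pair: Ern1 over Atf6 (22.3 against 16.9), Syvn1 over Eif2ak3 (13.8 against 8.33) and Sil1 over Derl3 (4.99 against 0.0495). The sensors Ern1, Atf6 and Eif2ak3 thus stood in the lower part of the order and Xbp1, at 78.02 ± 21.7 CPM per kilobase, above most members.

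The element in the promoters did not sort the members by their range over the samples. Among the 8 members with the ERSE and at least 1 CPM in every sample, the highest sample was 1.59 to 4.06 times the lowest (median 2.66). Among the 17 such members with a window but no match it was 1.08 to 6.33 times (median 2.42), so the ranges overlapped. Of the 28 other genes with the ERSE in their window, 9 were tested. Samples 7-9 and 10-12 were the lowest in 2 of these 9, against 20.3% of all tested genes. In 1 of the 2 both samples were at 0 CPM and the others at most at 0.236 CPM. So few genes, some of them almost without counts, cannot show whether the element goes with the low samples.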

How the data were processed

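Total RNA was extracted with an RNeasy Micro kit and libraries made with a stranded SMARTer Pico kit, per the labels' protocols. Trimmomatic 0.35 and RSEM 1.3.3 with builds GRCm38 and mm10 are named in the submitters' processing notes. For the aligner, the strand setting and the rounding of RSEM estimates, no source used here gives a statement. The deposited values are whole counts of each gene in 17 libraries and in 6 sums made by the authors, and each sum equalled its libraries in every gene.

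The members and lists were chosen with earlier results of these data known. The test on the 6 sums was that of edgeR 4.0.16 (R 4.3.3), with filterByExpr at a minimum count of 10, TMM scaling, the quasi-likelihood F test on group alone and Benjamini-Hochberg adjustment over 16666 genes and calls under 0.05. Intervals use the log2 fold change over the root of F. The code was tested on simulated counts. Alternatives were RLE, no filter, DESeq2 1.42.0, 17 libraries with and without index, each sample left out, library 6 left out, mitochondrial genes left out and, added after the values were seen, samples 7-9 and 10-12 left out. Log2 shifts used a pseudocount of 1 CPM. Coordinates and exon lengths came from GENCODE vM21 (GRCm38), which matched 55227 identifiers, and promoters from RefSeq (GRCm38.p6). Protein sequences were not used here. All 32 members and Mt1 were named, with at most 3 genes of each pathway list (smallest unadjusted p) and the most abundant or absent markers of the cell type lists.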

Additional observations from a re-analysis of the deposited data

Results flagged for a closer look

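Of 66 groups of library values examined (32 members and Mt1, in the 8 control and 9 Mt1ko libraries), 3 had an extreme library well apart from its neighbours. About 1 such group in 20 is flagged by chance if its values are independent, which libraries of the same summed sample need not be. Ern1 was 107.3 CPM in Mt1ko library 12, from 3215 counts, where the next lowest Mt1ko library held 161.9 CPM. That library is 1 of the 3 of sample 10-12, and the others held 185.4 and 186.6 CPM. Derl3 was 0.685 CPM in control library 2, from 23 counts, where the next highest control library held 0.119 CPM. Library 6, which carries the Mt1ko label, had 326.2 CPM of Mt1, and the second highest Mt1ko library had 87.2 CPM.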

How the results depend on the processing

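No member was called under any of the 14 alternatives, and 0 genes of the other lists were either. The count of genes called was 0 with RLE scaling, without the filter, with the index covariate, without mitochondrially encoded genes and without any single summed sample. It was 1 with DESeq2, with 17 libraries and without library 6 (Mt1 in each), and 1 without samples 7-9 and 10-12 (mt-Co3). Between 1 and 28 members were higher in Mt1ko when 1 summed sample was left out, and the median ran from -0.33 (without control 7-9) to 0.22 (without Mt1ko 10-12); 6 were higher without both. Members near 0 changed sign with the setting. Leaving out each summed sample in turn gave log2 fold changes of -0.14 to 0.19 for Atf6, -0.18 to 0.34 for Calr, -0.16 to 0.18 for Canx, -0.62 to 0.12 for Creld2, -0.24 to 0.35 for Derl1. It gave -0.23 to 0.18 for Dnajb11, -0.60 to 0.30 for Dnajb9, -0.36 to 0.11 for Dnajc3, -0.23 to 0.15 for Edem1, -0.12 to 0.29 for Edem2. For others it gave -0.57 to 0.10 for Eif2ak3, -0.036 to 0.013 for Ern1, -0.36 to 0.28 for Hsp90b1, -0.40 to 0.32 for Hspa5, -0.47 to 0.23 for Hyou1. The range was -0.44 to 0.33 for Manf, -0.0052 to 0.21 for Os9, -0.42 to 0.28 for P4hb, -0.26 to 0.23 for Pdia3, -0.47 to 0.37 for Pdia4. Further ranges were -0.41 to 0.33 for Pdia6, -0.46 to 0.32 for Sdf2l1, -0.38 to 0.16 for Sec61a1, -0.30 to 0.28 for Sec61b, -0.18 to 0.17 for Sel1l. The last were -0.50 to 0.19 for Selenos, -0.57 to 0.22 for Sil1, -0.31 to 0.25 for Ssr1, -0.43 to 0.12 for Syvn1, -0.30 to 0.23 for Xbp1. With 17 libraries the turned signs were Hsp90b1 0.019, Hspa5 0.043, Manf 0.028, Pdia6 0.026, Sdf2l1 0.00073, Sec61b 0.012. Without library 6 they were Hspa5 0.0055, Sdf2l1 0.046, Sec61b 0.020. Without samples 7-9 and 10-12 they were Atf6 -0.0048, Dnajb11 -0.064, Edem2 -0.26, Pdia3 -0.072, Sel1l -0.022, Xbp1 0.022. Ern1 turned to 0.0036 with RLE, 0.0035 with DESeq2 and 0.0042 with the index covariate. No paired analysis was possible because the library numbers of the 2 groups are all different and no label pairs a control sample with an Mt1ko sample. Derl3 fell under the filter with 17 libraries and has no value there. Arms of 2 samples take their spread from the pooled fit.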
